A study of Mus musculus with 8 samples.

Results

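The genes described here are 10 genes of the cellular response to low oxygen other than the glycolytic enzymes, namely Hif1a, Epas1, Egln1, Egln3, Vegfa, Car9, Bnip3, Ankrd37, Pfkfb3 and Pfkfb4. They were taken as every probe set of the array table whose only gene symbol is that of a listed gene, which gave 16 probe sets out of 28898 with 1 symbol, and 10 genes out of 17097. The genes were chosen by name with their knockout minus wild-type differences in log2 signal already known, so they count as selected on those differences. The differences are given below as a description, without a test, and support nothing about the set. Ileum was taken from 4 mice with Slc51a inactivated (Slc51a knockout) and 4 wild-type mice. All were males about 2 months of age on a C57BL/6 background, fasted for 4 h before the tissue was taken. The labels call the 4 samples of a genotype biological replicates. Slc51a encodes a subunit of the transporter that carries bile acids out of the ileal enterocyte into the blood. The labels do not say how the allele was made or whether the wild-type mice were littermates.

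In oxygenated cells the EGLN enzymes, which are prolyl hydroxylases, hydroxylate the alpha subunits of hypoxia-inducible factor (HIF), and the VHL ubiquitin ligase complex then marks them for destruction. When oxygen falls the alpha subunits pair with ARNT and bind target genes, among them Egln3 itself, Vegfa, Car9, Bnip3, Ankrd37 and the PFKFB genes. The intestinal epithelium lies next to a lumen that holds little oxygen, and HIF activity is a known feature of its villus cells. HIF alpha subunits are controlled mainly as proteins, which an array of transcripts does not measure.

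The known HIF targets among the 10 genes differed between the genotypes in opposite directions. Ankrd37, Egln3 and Car9 were higher in the knockout, by 2.44-fold, 2.40-fold and 1.99-fold, and no knockout sample overlapped a wild-type sample. Vegfa, Pfkfb3 and Pfkfb4 were lower, at 0.418, 0.533 and 0.681 times their wild-type levels, again without overlap. Bnip3 was higher on average, but its knockout samples were widely spread and overlapped the wild-type samples. Of the transcripts of the HIF alpha subunits, Epas1 was 0.825 times its wild-type level while Hif1a was 1.16 times its own with overlapping groups.

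Across 17097 genes, 30.0% passed the threshold used here, a Benjamini-Hochberg adjusted p from limma below 0.05, 17.1% higher and 12.9% lower in the knockout. Of the 10 genes, 3 were past it as higher, 4 as lower and 3 were not past it. Groups did not overlap for 7 of the 10 genes and for 30.7% of all genes. Taken as probe sets, 5 of the 16 were past the threshold as higher and 4 as lower, beside 26.0% of all probe sets in either direction, 15.0% as higher and 11.1% as lower, and groups did not overlap for 9 of the 16, beside 27.4% of all. The median difference was 0.17 over the 10 genes and 0.01 over all genes, on the log2 scale. Because these differences entered the choice of genes, the counts only describe where they lay and are not a result about the set.

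**Figure D1:**
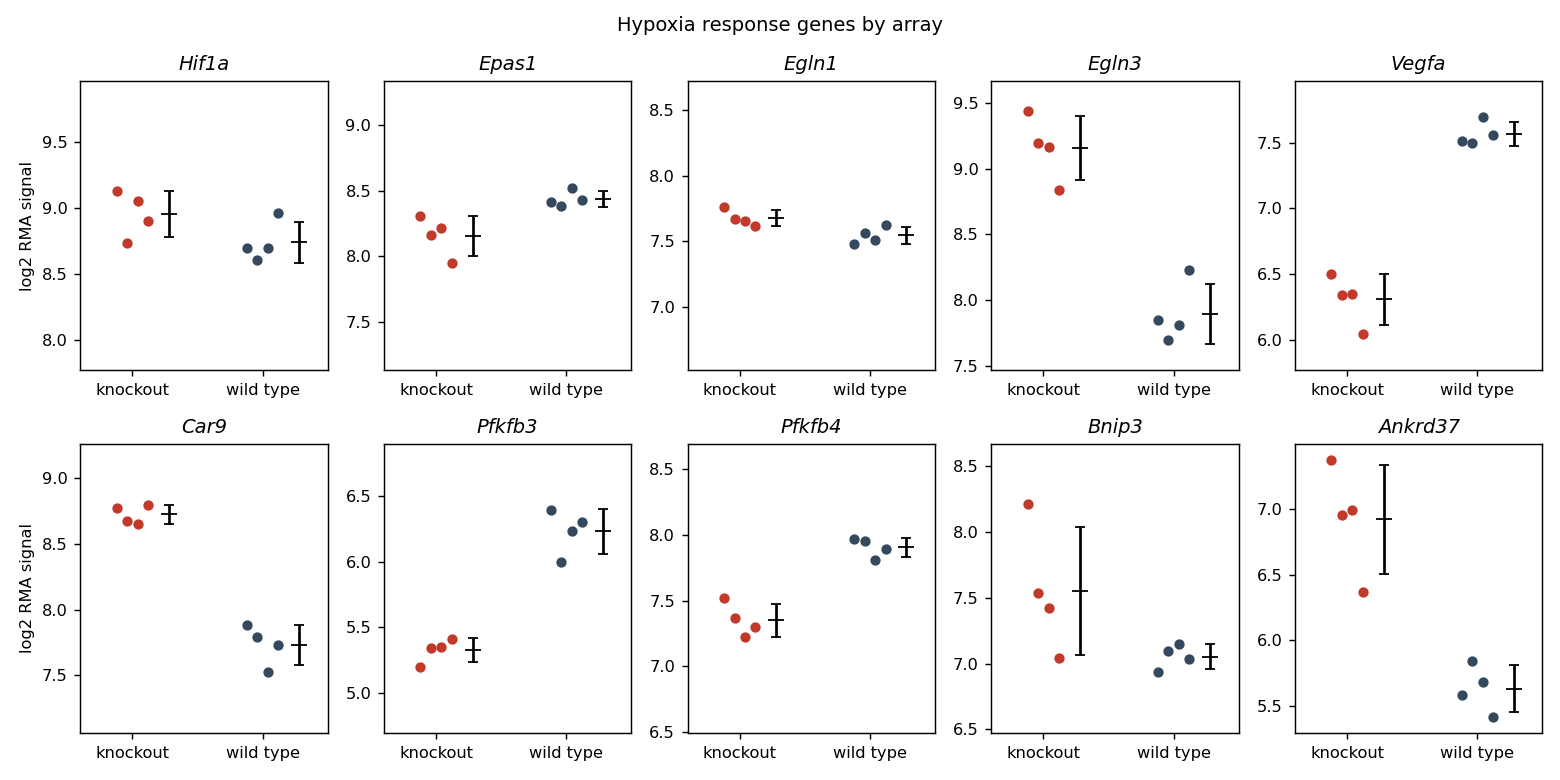
Log2 RMA signal (vertical axis, the same span of 2.2 log2 units in each panel) of the 10 genes in each of 4 knockout samples (red, left) and 4 wild-type samples (dark, right), with the mean and SD of each genotype beside the points. Egln3, Car9 and Ankrd37 lie wholly above, and Epas1, Vegfa, Pfkfb3 and Pfkfb4 wholly below, the wild-type points, while Hif1a, Egln1 and Bnip3 overlap.

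Slc51a itself was at 4.67, 4.50, 4.68 and 4.56 in the knockout samples and at 11.36, 11.41, 11.29 and 11.37 in the wild-type samples, as the labels require. The suffix of its probe set allows for cross-hybridization, and where it lies relative to the inactivated part is not known here. All 10 markers of ileal tissue lay above the median of all probe sets, 4.58, but 5 of them fell and 2 rose in the knockout, and their summed linear signal was 24266 to 25571 in the knockout and 27459 to 29512 in wild type. Of those named after their values were seen, the vitamin B12 receptor Cubn changed by -1.61 (SE 0.13), the hormone gene Guca2b by -1.23 (SE 0.13) and the bile acid uptake transporter Slc10a2 by -0.45 (SE 0.07). The 2 that rose were the transcription factor gene Cdx1, by 0.37 (SE 0.06), and the hormone gene Guca2a, by 0.19 (SE 0.05). Fabp6, which binds bile acids inside the ileal enterocyte, stood at 13.18 ± 0.03 in the knockout and 13.11 ± 0.02 in wild type (SD, n = 4 each). Array medians ran from 4.56 to 4.58 in the knockout and from 4.57 to 4.60 in wild type. Probe sets from the 3' end exceeded those from the 5' end of the Gapdh transcript by 0.06 to 0.21 in the knockout and by 0.18 to 0.34 in wild type, a measure of RNA integrity and labelling. For the actin transcript the excess was 0.42 to 0.47 in the knockout and 0.38 to 0.47 in wild type, so the genotypes overlapped. Several cell type marker lists moved with the genotype. Of 15 measured mature enterocyte genes 13 were lower, with a summed linear signal of 31436 to 35461 in the knockout and 44751 to 48738 in wild type. All 11 measured smooth muscle genes were lower (5637 to 6642 in the knockout, 9357 to 12380 in wild type), as were 11 of 13 T lymphocyte genes (702 to 963 in the knockout, 2997 to 3719 in wild type). Of 11 proliferation genes of the crypt 10 were higher (5666 to 6437 in the knockout, 4345 to 4690 in wild type). RMA gives no signal of 0, so no marker was listed at 0. The part of these cell types in the differences below was not tested, and in whole tissue fewer cells of a type and less RNA per cell cannot be told apart.

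Hif1a, which encodes HIF-1 alpha, was at 9.13, 8.73, 9.06 and 8.90 in the knockout samples and at 8.70, 8.61, 8.69 and 8.96 in the wild-type samples. The brightest wild-type sample lay above 2 of the knockout samples. The difference was 0.22 (SE 0.10). It was 0.11 with the mean of both probe sets and 0.14 with cyclic loess scaling.

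Epas1 encodes HIF-2 alpha, the subunit best known in the intestine for controlling iron uptake genes. It was at 8.30, 8.16, 8.22 and 7.95 in the knockout samples and at 8.41, 8.38, 8.52 and 8.42 in the wild-type samples. Every knockout sample was below every wild-type sample, by a narrow margin. The difference was -0.28 (SE 0.07) with all 8 arrays and -0.22 without the 3 arrays that had the lowest hybridization controls. A dimmer probe set of Epas1, under the overall median, was at 4.14 to 4.53 in the knockout and 4.20 to 4.34 in wild type, so the mean of both probe sets differed by only -0.09. The second probe set of Hif1a was dim as well, at 3.94 to 4.17 in the knockout and 3.98 to 4.14 in wild type.

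Egln1 and Egln3 encode the prolyl hydroxylases PHD2 and PHD3, of which PHD2 is the main oxygen sensor in most cells and PHD3 is strongly induced by HIF. Egln3 was at 9.43, 9.19, 9.16 and 8.84 in the knockout samples and at 7.85, 7.70, 7.81 and 8.23 in the wild-type samples. The lowest knockout sample stood above the highest wild-type sample. Its difference was 1.26 (SE 0.13), and its other probe set, at 6.79 to 7.13 in the knockout and 6.09 to 6.26 in wild type, differed by 0.78 (SE 0.08). The groups did not overlap on either probe set of Egln3.

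Egln1 was at 7.76, 7.67, 7.65 and 7.62 in the knockout samples and at 7.48, 7.57, 7.51 and 7.62 in the wild-type samples. The groups touched at their edges, and the difference was 0.13 (SE 0.05), or 0.08 with cyclic loess scaling. Its dimmer probe set was at 6.62, 6.61, 6.50 and 6.52 in the knockout and at 6.07, 6.27, 6.19 and 6.30 in wild type. There the groups did not overlap and the difference was 0.36 (SE 0.06), so the probe sets of Egln1 had the same direction but disagreed in size, with a mean of 0.24. Egln2, the gene of the related enzyme PHD1, was at 7.81 ± 0.04 in the knockout and 7.81 ± 0.05 in wild type (SD, n = 4 each) and was named after its values were seen.

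**Figure D2:**
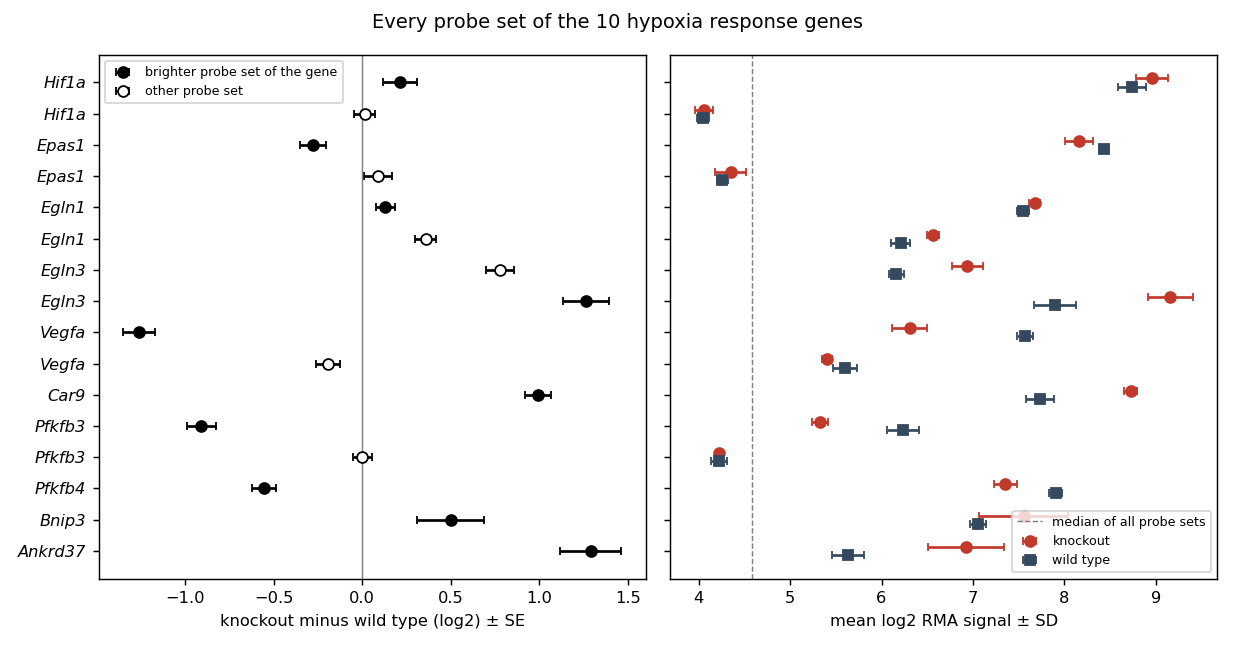
Left, knockout minus wild-type difference in log2 signal with its SE for each of the 16 probe sets, filled for the brighter probe set of a gene and open for the other. Right, mean log2 RMA signal with SD (n = 4 per genotype) of knockout (circles) and wild type (squares), with the median of all probe sets as a dashed line; the open probe sets of Hif1a, Epas1 and Pfkfb3 lie left of that line and differ by 0.01, 0.09 and 0.00.

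Ankrd37, an ankyrin repeat protein gene known as a direct HIF target, was at 7.37, 6.95, 6.99 and 6.37 in the knockout samples and at 5.59, 5.84, 5.68 and 5.42 in the wild-type samples. Its difference of 1.29 (SE 0.17) was the largest rise of the 10 genes. Every knockout sample was above all wild-type samples, with an SD of 0.42 in the knockout and 0.18 in wild type (n = 4 each).

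Car9 encodes carbonic anhydrase IX, a membrane enzyme that hydrates carbon dioxide outside the cell and is widely used as a hypoxia marker. It was at 8.78, 8.67, 8.65 and 8.80 in the knockout samples and at 7.88, 7.80, 7.53 and 7.73 in the wild-type samples. The knockout samples were all higher and lay close together, with an SD of 0.07, against 0.15 in wild type (n = 4 each). The difference was 0.99 (SE 0.07). Among 15 other carbonic anhydrase genes, 2 rose and 0 fell, a share of 13.3% called against 30.0% of all genes. Car4, a membrane-bound enzyme of the enterocyte, rose by 1.05 (SE 0.15, limma adjusted p = 0.000375) and the cytosolic Car13 by 0.38 (SE 0.07, limma adjusted p = 0.00144).

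Bnip3 encodes a mitochondrial outer membrane protein that recruits the autophagy machinery to mitochondria. It was at 8.21, 7.54, 7.42 and 7.04 in the knockout samples and at 6.93, 7.10, 7.15 and 7.04 in the wild-type samples. Knockout replicate 1 stood far above the rest, and knockout replicate 4 lay among the wild-type samples. The difference was 0.50 (SE 0.19). It was 0.28 without knockout replicate 1, 0.67 without knockout replicate 4 and 0.84 without the 3 arrays of lowest hybridization controls, so its size rests on single samples. Of 15 measured partners of BNIP3 and other mitophagy genes, 3 rose, 6 fell and 6 did not pass, 60.0% called against 30.0% of all genes. Pink1, the kinase that marks damaged mitochondria, changed by -0.68 (SE 0.09, limma adjusted p = 0.000238), and the autophagosome genes Map1lc3a and Gabarap by -0.53 (SE 0.07, limma adjusted p = 0.000128) and -0.21 (SE 0.04, limma adjusted p = 0.00349). Bcl2l1, an anti-apoptotic BCL2 relative, changed by -0.40 (SE 0.06, limma adjusted p = 0.000481), which its averaged probe sets did not keep (-0.10, limma adjusted p = 0.0641). Bnip3l, the closest relative of Bnip3 and named after its value was seen, differed by 0.16 (SE 0.06, limma adjusted p = 0.0662). The suffixes of the Pink1 and Map1lc3a probe sets allow for cross-hybridization, and the Gabarap call was lost without the 3 arrays of lowest hybridization controls (-0.17, limma adjusted p = 0.0722).

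Vegfa encodes the main growth factor for blood vessels. It was at 6.50, 6.34, 6.35 and 6.04 in the knockout samples and at 7.51, 7.50, 7.70 and 7.56 in the wild-type samples. The brightest knockout sample was well below the dimmest wild-type sample, and the difference was -1.26 (SE 0.09), the largest fall of the 10 genes. A dimmer probe set was at 5.39, 5.48, 5.35 and 5.40 in the knockout and at 5.57, 5.46, 5.77 and 5.60 in wild type. Its groups overlapped, its difference was -0.19 (SE 0.07), and the mean of both probe sets differed by -0.73.

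Of 13 other ligands and receptors of the VEGF and angiopoietin families, 1 rose, 3 fell and 9 did not pass, 30.8% called against 30.0% of all genes. The VEGF receptor gene Kdr changed by -0.32 (SE 0.07, limma adjusted p = 0.00401) and the coreceptor Nrp1 by -0.41 (SE 0.06, limma adjusted p = 0.000564). The lymphatic growth factor Vegfc rose by 0.28 (SE 0.08, limma adjusted p = 0.0241), a call lost on leaving out any of 5 single arrays, the lowest value being 0.21 without knockout replicate 3 (limma adjusted p = 0.0598). Vegfd changed by -0.23 (limma adjusted p = 0.0112) from a signal of 3.96 in the knockout and 4.19 in wild type, under the overall median. Some vessel markers were lower in the same samples, with 46.7% of endothelial and 40.0% of pericyte genes called in either direction, against 30.0% of all genes. Among 15 endothelial genes there were 6 that fell, 1 that rose and 8 not past the threshold, and they had a summed linear signal of 644 to 681 in the knockout and 714 to 767 in wild type. Of 5 measured pericyte genes 2 fell and 0 rose (738 to 840 in the knockout, 1111 to 1359 in wild type). Most of this sum was Rgs5, at 9.39 in the knockout and 10.03 in wild type. Kcnj8 also fell, by -0.42, whereas Pdgfrb (-0.07), Notch3 (0.03) and Ndufa4l2 (-0.04) were not past the threshold. The part of vessel cells in the Vegfa, Kdr and Nrp1 differences was not tested.

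Pfkfb3 and Pfkfb4 encode enzymes that make and remove fructose bisphosphate of the regulatory kind, which turns on phosphofructokinase in glycolysis. Pfkfb3 was at 5.20, 5.34, 5.35 and 5.41 in the knockout samples and at 6.40, 6.00, 6.23 and 6.31 in the wild-type samples. The knockout samples were all lower, and the difference was -0.91 (SE 0.08). Its second probe set was dim, at 4.17 to 4.26 in the knockout and 4.13 to 4.33 in wild type, so the mean of both probe sets differed by -0.45. Pfkfb4 was at 7.52, 7.36, 7.22 and 7.30 in the knockout samples and at 7.97, 7.96, 7.81 and 7.89 in the wild-type samples. Its groups did not overlap either, and the difference was -0.55 (SE 0.07). On the brighter probe set of Pfkfb3 and the only one of Pfkfb4, 4 of 4 knockout samples thus lay below wild type.

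Of 7 measured relatives, 1 rose, 1 fell and 5 did not pass, 28.6% called against 30.0% of all genes. Tigar, a phosphatase that removes the same regulatory sugar, rose by 0.42 (SE 0.05, limma adjusted p = 0.000167), although the mean of its probe sets differed by 0.12 (limma adjusted p = 0.155). Fbp1, the fructose bisphosphatase of gluconeogenesis, changed by -0.45 (SE 0.11, limma adjusted p = 0.00798), a call lost without the 3 arrays of lowest hybridization controls (-0.35, limma adjusted p = 0.0761).

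The sequences upstream of the targets that differed most are shown because genes that share the HIF label lay on opposite sides of wild type. RefSeq of GRCm38.p6 gave 11 transcript starts for 9 of the 10 genes, all but Epas1. The 250 bases before each start were searched on both strands for the HIF core, written ACGTG in its main form and GCGTG in its variant form. The reverse complements are CACGT and CACGC. Matches that overlap, as in CACGTG, were merged, and capitals mark them below. The sequences of the genes that were higher on average in the knockout are those of Ankrd37 (chr8:45999851-46000100, minus strand), Egln3 (chr12:54203875-54204124, minus strand), Car9 (chr4:43506776-43507025, plus strand) and Bnip3 (chr7:138909507-138909756, minus strand). Those of the genes that were lower are Vegfa (chr17:46032378-46032627, minus strand), Pfkfb3 (chr2:11553930-11554179, minus strand) and Pfkfb4 (chr9:108991652-108991901, plus strand). For Vegfa and Pfkfb3 the start is the farthest upstream of those used.
Ankrd37: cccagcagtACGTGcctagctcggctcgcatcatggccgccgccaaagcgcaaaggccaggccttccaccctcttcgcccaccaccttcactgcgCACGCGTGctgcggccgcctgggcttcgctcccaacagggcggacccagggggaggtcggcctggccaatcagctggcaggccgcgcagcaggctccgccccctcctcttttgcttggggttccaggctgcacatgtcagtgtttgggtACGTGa
Egln3: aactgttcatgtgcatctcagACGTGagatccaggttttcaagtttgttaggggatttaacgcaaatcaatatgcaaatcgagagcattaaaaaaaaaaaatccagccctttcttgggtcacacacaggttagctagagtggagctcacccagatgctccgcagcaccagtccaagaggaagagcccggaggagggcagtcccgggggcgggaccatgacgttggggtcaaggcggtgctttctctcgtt
Car9: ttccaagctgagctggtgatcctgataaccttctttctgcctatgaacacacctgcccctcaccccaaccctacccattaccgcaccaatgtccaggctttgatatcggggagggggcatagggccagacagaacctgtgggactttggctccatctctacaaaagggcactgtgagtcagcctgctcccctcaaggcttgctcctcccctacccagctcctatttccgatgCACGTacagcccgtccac
Bnip3: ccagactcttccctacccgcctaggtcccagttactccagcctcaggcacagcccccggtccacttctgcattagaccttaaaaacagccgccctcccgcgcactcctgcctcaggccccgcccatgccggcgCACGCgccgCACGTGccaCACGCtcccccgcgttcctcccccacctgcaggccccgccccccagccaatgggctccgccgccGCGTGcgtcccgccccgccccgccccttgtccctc
Vegfa: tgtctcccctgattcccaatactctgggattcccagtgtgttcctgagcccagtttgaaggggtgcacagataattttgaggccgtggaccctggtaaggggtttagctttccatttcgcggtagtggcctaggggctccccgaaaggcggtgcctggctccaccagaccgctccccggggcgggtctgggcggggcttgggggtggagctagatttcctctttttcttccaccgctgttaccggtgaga
Pfkfb3: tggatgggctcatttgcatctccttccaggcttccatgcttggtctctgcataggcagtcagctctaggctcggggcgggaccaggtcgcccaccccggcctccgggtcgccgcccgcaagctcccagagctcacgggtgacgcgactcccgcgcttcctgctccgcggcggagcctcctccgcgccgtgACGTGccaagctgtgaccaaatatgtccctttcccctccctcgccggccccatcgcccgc
Pfkfb4: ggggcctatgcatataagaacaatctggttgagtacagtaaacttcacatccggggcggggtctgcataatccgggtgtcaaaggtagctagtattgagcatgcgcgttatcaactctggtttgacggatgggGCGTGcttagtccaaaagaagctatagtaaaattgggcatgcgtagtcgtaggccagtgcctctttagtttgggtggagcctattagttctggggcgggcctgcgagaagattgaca

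The main form was present in 9 of the 11 windows, and either form in 10, against 16.6% and 38.6% of all 32851 windows, and 19.5% and 48.8% of the windows of genes on the array. The genes were chosen by name as genes of this pathway, so these shares are a description and support nothing about the set. Vegfa and Pfkfb3 entered with 2 windows each. The median G and C content of the 11 windows was 60.4%, against 57.6% for the windows of genes on the array and 52.4% for all windows, and both forms hold CG. Ankrd37 had 2 matches to the main form, at bases -241 to -237 and -6 to -2, and a merged run of the variant form between them. Car9 had a match at -18 to -14, Egln3 at -229 to -225, and Bnip3 a CACGTG at -108 to -103 with 3 variant matches around it. Of the genes that were lower, Pfkfb3 had a main-form match at -60 to -56 upstream of its first start and a CACGTG at -53 to -48 upstream of its second. Pfkfb4 had a variant match only, and the first Vegfa window held neither form. The second Vegfa window held a main-form match at -211 to -207 and a variant match at -218 to -214. That window (chr17:46025164-46025413, not printed above) lies inside the gene, which spans 46016993 to 46032377, so its matches are in transcribed sequence downstream of the first start. The windows of Hif1a, Pfkfb4 and Ankrd37 and the second of Pfkfb3 also lie within their genes' spans. The first window of Pfkfb3 lies partly within its gene's span, which ends at 11554071, and its match is in the part within. A match to the main form was thus found among genes higher and genes lower in the knockout. These are matches of letters, not measured binding, and a window without them says nothing of sites elsewhere.

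**Figure D3:**
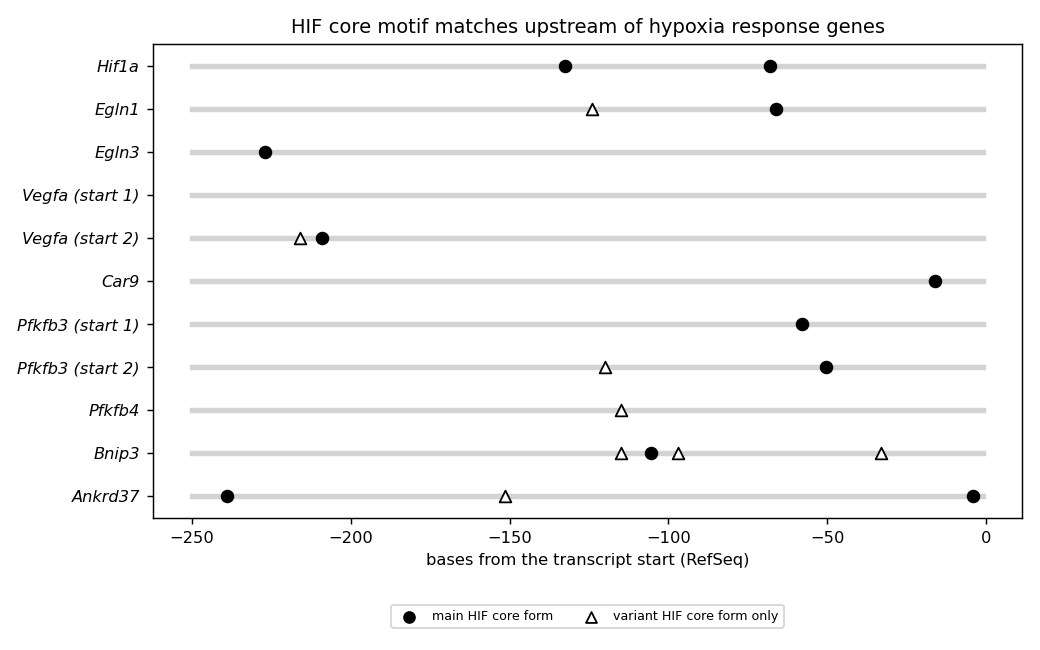
Positions of the HIF core motif in the 250 bases upstream (horizontal axis, bases from the RefSeq transcript start) of 11 starts of 9 genes, with filled circles for merged matches that hold the main form and open triangles for those of the variant form only. Matches are spread over the windows, and the first Vegfa start has none.

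The knockout samples did not differ from wild type by the same amount for each gene. Knockout replicate 1 was the highest and knockout replicate 4 the lowest of the knockout samples for 6 of the 10 genes, namely Epas1, Egln1, Egln3, Vegfa, Bnip3 and Ankrd37, and 11.0% of all genes shared that order. Genes on both sides of wild type took part, since knockout replicate 1 was nearest to wild type for Epas1 and Vegfa and farthest from it for Egln3, Bnip3 and Ankrd37. Car9 and Pfkfb3 did not follow it, each being highest in knockout replicate 4. The SD among knockout samples was 0.49 for Bnip3 and 0.42 for Ankrd37, above those of 99.5% of genes or more, against 0.09 and 0.18 in wild type. Over all genes the median SD was 0.09 in the knockout and 0.07 in wild type. Of 15 marker lists, 6 had the same highest and lowest knockout sample. These were the mature enterocyte, smooth muscle, fibroblast, myeloid, erythrocyte and adipocyte lists. Among them, the summed signal of 3 erythrocyte genes was 739.8 in knockout replicate 1 and 373 in knockout replicate 4, against 537 to 862 in wild type. Most of this sum was Hba-a1, at 9.47 and 8.44 in log2 signal in those samples. Slc4a1 and Alas2 lay under the overall median. The sum of 3 adipocyte genes was 536 in knockout replicate 1 and 192 in knockout replicate 4, against 277 to 324 in wild type. Most of it was Fabp4, at 8.80 and 7.36, with Adipoq at 6.28 and 4.04 and Lep under the overall median. The part of these cells in the spread was not tested.

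**Figure D4:**
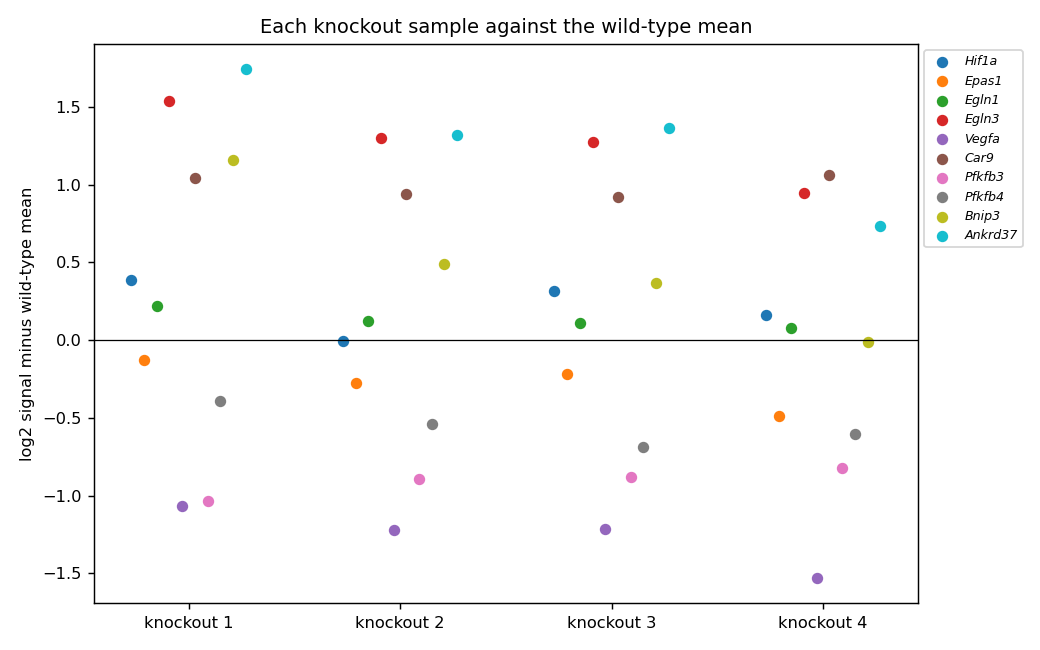
Log2 signal of each knockout sample minus the wild-type mean (vertical axis) for the 10 genes, by knockout sample. Ankrd37, Egln3, Bnip3 and Vegfa are highest in knockout 1 and lowest in knockout 4, whereas Car9 stays near 1 in all 4 samples.

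Other genes described as HIF targets outside glycolysis moved in both directions. Of 39 measured, 7 rose, 6 fell and 26 did not pass, 33.3% called against 30.0% of all genes, and their median difference was 0.00, beside 0.01 over all genes. Fam162a, a mitochondrial protein induced by hypoxia, rose by 1.25 (SE 0.07, limma adjusted p = 9.69e-07), or by 0.74 with the mean of its probe sets. The mitochondrial protease Lonp1 rose by 0.65 (SE 0.07, limma adjusted p = 4.87e-05) and the endoplasmic reticulum oxidase Ero1a by 0.48 (SE 0.06, limma adjusted p = 0.000186), or by 0.79 for Ero1a with the mean of its probe sets. Igfbp3, a secreted binder of insulin-like growth factors, changed by -1.36 (SE 0.14, limma adjusted p = 3.55e-05). The others past the threshold were named after their values were seen. Those that rose were the mTORC1 inhibitor Ddit4 (0.90), the mitochondrial protein Higd1a (0.62) and the oxygenases Kdm3a (0.32) and Jmjd6 (0.30), of which Jmjd6 did not pass with its probe sets averaged (0.18, limma adjusted p = 0.0584). Those that fell were Insig2 (-0.54), Pim1 (-0.49), Wsb1 (-0.32), Rora (-0.26) and Stc1 (-0.22). The groups overlapped for Rora and Stc1, and Rora was under the overall median, at 4.19 in the knockout and 4.44 in wild type. With probe sets averaged, 4 genes of the list were called lower, against 6. The widely used hypoxia markers Adm and Ndrg1, also named after their values were seen, differed by -0.48 (SE 0.24) and 0.09 (SE 0.07) and were not past the threshold.

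**Figure D5:**
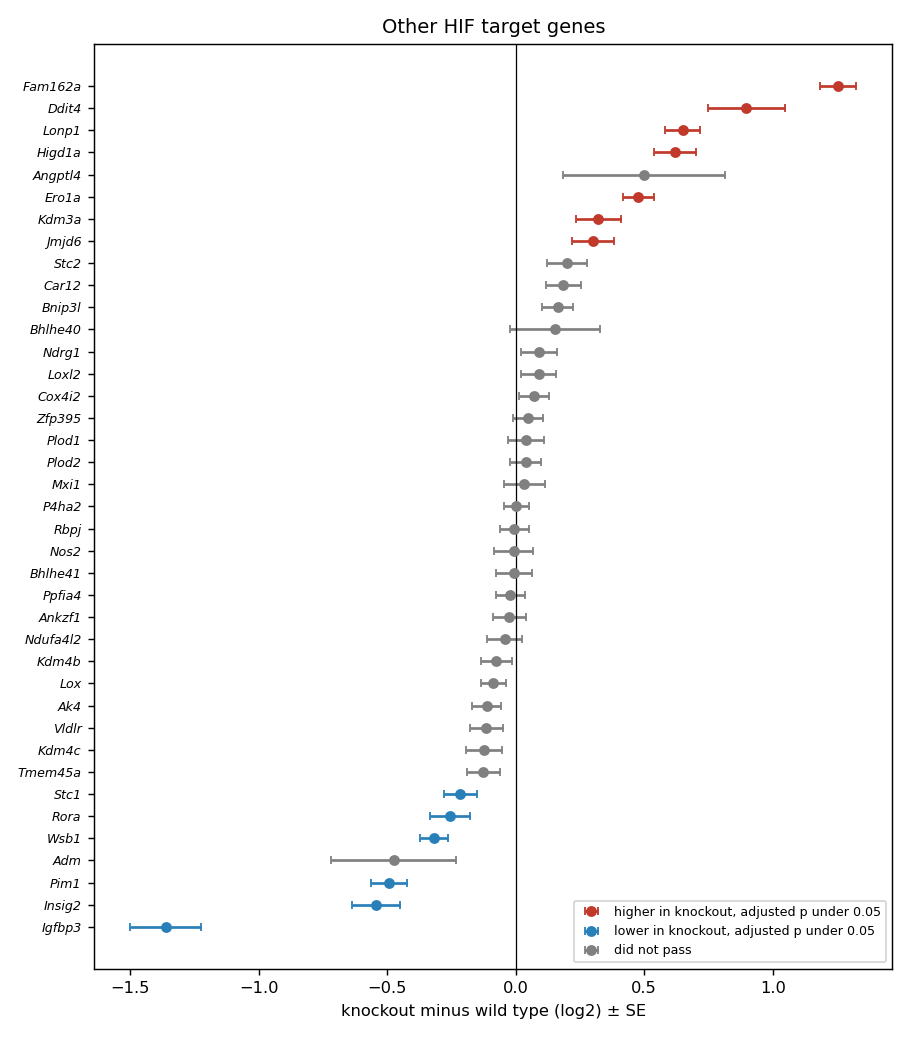
Knockout minus wild-type difference in log2 signal with its SE (horizontal axis) for 39 other HIF target genes, ordered by size. Fam162a is the highest at 1.25 and Igfbp3 the lowest at -1.36, with 26 genes not past the threshold.

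Other regulators of the pathway, Egln2 among them, were called in 43.8% of cases, against 30.0% of all genes. Of 16 measured, 6 rose, 1 fell and 9 did not pass. Eloc and Elob, the elongin subunits of the VHL ubiquitin ligase, rose by 0.37 (SE 0.05, limma adjusted p = 0.000163) and 0.28 (SE 0.04, limma adjusted p = 0.000462), Eloc not passing once its probe sets were averaged (0.08, limma adjusted p = 0.219). The chaperone Hsp90aa1 rose by 0.62 (SE 0.12, limma adjusted p = 0.00199). Arnt2, a relative of ARNT, rose by 0.53 (SE 0.11, limma adjusted p = 0.00387) to 4.63 in the knockout, against 4.10 in wild type, close to or under the overall median. Cul2 and Rbx1, the others that rose, were named after their values were seen. They rose by 0.27 (SE 0.07, limma adjusted p = 0.0115) and 0.20 (SE 0.05, limma adjusted p = 0.0118). Cited2, which competes with HIF for its coactivators and was named after its value was seen, changed by -0.36 (SE 0.08, limma adjusted p = 0.00458). Vhl, Arnt and Hif1an, likewise named afterwards, differed by -0.17 (SE 0.10), 0.00 (SE 0.04) and -0.02 (SE 0.06) and were not past the threshold.

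Iron genes of the enterocyte, several of them HIF-2 targets, were read beside Epas1. Of 5 measured, 1 rose, 3 fell and 1 did not pass, 80.0% called against 30.0% of all genes. The list is short and was chosen with earlier results known. The transferrin receptor Tfrc rose by 1.39 (SE 0.08, limma adjusted p = 1.27e-06). The iron exporter Slc40a1 changed by -0.51 (SE 0.10, limma adjusted p = 0.00296), its partner oxidase Heph by -0.41 (SE 0.05, limma adjusted p = 0.000226) and the ferritin heavy chain Fth1 by -0.16 (SE 0.04, limma adjusted p = 0.0126), or by -0.26 for Fth1 with cyclic loess. Without the 3 arrays of lowest hybridization controls the calls of Slc40a1 (-0.33, limma adjusted p = 0.0652) and Fth1 (-0.15, limma adjusted p = 0.117) were lost. Cybrd1, the apical iron reductase and a known HIF-2 target, was named after its value was seen and differed by -0.03 (SE 0.08, limma adjusted p = 0.853).

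Genes whose pattern over the 8 arrays was most like that of Ankrd37 and of Vegfa, the extremes of the 10 genes, were found by the root mean square distance between log2 values, each gene taken from its own mean. For Vegfa these were Dpyd, the enzyme that degrades pyrimidines, 2010106E10Rik and Mep1a, a brush border peptidase, at distances of 0.10, 0.10 and 0.10. For Ankrd37 they were Acox2, a peroxisomal oxidase, the malic enzyme Me1 and the transthyretin gene Ttr, at distances of 0.25 each. Dpyd, 2010106E10Rik and Mep1a changed by -1.19, -1.23 and -1.28, and Acox2, Me1 and Ttr by 1.18, 1.41 and 1.20. The distance includes the genotype difference, so similar changes among the neighbours follow from how they were found. Distances were larger for Ankrd37, whose SD among knockout samples was 0.42, against 0.19 for Vegfa.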

How the data were processed

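Total RNA from ileum was purified with Trizol and a column, and 250 ng was labelled for Affymetrix GeneAtlas 3' arrays, per the labels' protocols. The values are the authors' deposited log2 signals per probe set, made with RMA per the submitters' processing notes, which name no version. RMA compresses low signals, so a difference near the floor is understated, and signals are not compared between genes. No label names a batch. Precision is limited by having only 4 arrays of each genotype.

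The genes and lists were chosen with earlier results of these data known. Of 28898 probe sets with 1 symbol, 28689 were matched to RefSeq (GRCm38.p6) by Entrez identifier. A gene was represented by its probe set of highest mean, without a filter. Genotypes were compared as knockout minus wild type with limma 3.58.1 in R 4.3.3 (lmFit, eBayes, 2-sided, no block), with Benjamini-Hochberg adjustment over 17097 genes. Second probe sets were read from the same fit on 28898 probe sets. The script was tested on simulated data. List genes named were the up to 4 with the smallest adjusted p past 0.05, others being named as chosen afterwards. Alternatives were a filter on dim genes, other scalings, the mean of probe sets, each probe set on its own, trended robust and weighted fits, an unmoderated test, a threshold of 0.01, the replicate number as a block, each array left out, and omission of the 3 arrays whose hybridization controls were lowest (knockout 3 and 4, wild type 2). Figures used matplotlib 3.10.9.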

Additional observations from a re-analysis of the deposited data

How the results depend on the processing

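The 10 genes were chosen on these differences, so their values under the 19 alternatives that gave a value per gene are a description. Those of Egln3 ran from 1.02 to 1.37, Ankrd37 from 1.14 to 1.60, Vegfa from -1.32 to -0.73 and Pfkfb3 from -1.04 to -0.45, and no gene of the 10 changed sign. Epas1 ran from -0.35 to -0.09 and lost its call as lower in 4 of the 19. Hif1a, Egln1 and Bnip3, not called in the main fit, were called in 2, 2 and 3 of them. Testing every probe set on its own called 5 member probe sets higher, and 12 probe sets of the other HIF targets. There a gene with several probe sets can count more than once. Genes called lower over all genes numbered 1414 without the 3 arrays of lowest hybridization controls and 1446 at a threshold of 0.01, against 2210. Leaving out 1 array gave 3 to 4 of the 10 genes called higher and 4 lower. With the replicate number as a block, 3 and 4 of the 10 genes were called, and 8 higher and 5 lower of the other HIF targets; the deviations of same-numbered samples from their genotype means had correlations of 0.22, -0.05, 0.11 and 0.16, over 0.1 in 3 of 4 pairs, and those 3 knockout samples correlated best with their own number. Since not every pair was over 0.1 and the labels tie no number to a shared animal, litter or day, pairing was not assumed. Signals near the floor are compressed, so a change there may be understated.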

Other observations

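Epithelial barrier genes described as HIF targets were read as a further group. Of 9 measured, 2 rose, 2 fell and 5 did not pass, 44.4% called against 30.0% of all genes. Nt5e, the ectonucleotidase that makes adenosine outside the cell, was at 5.33 ± 0.23 in the knockout and 7.18 ± 0.50 in wild type (SD, n = 4 each), a change of -1.85 (SE 0.21, limma adjusted p = 8.14e-05), or -0.65 with the mean of its probe sets. The membrane mucin Muc3 changed by -0.26 (SE 0.06, limma adjusted p = 0.0047), a call lost without the 3 arrays of lowest hybridization controls (-0.17, limma adjusted p = 0.0931). The creatine kinases Ckmt1 and Ckm rose by 0.17 (limma adjusted p = 0.0289) and 0.15 (limma adjusted p = 0.0484). Ckm did not pass once its probe sets were averaged (0.04, limma adjusted p = 0.647), and Ckmt1 not with cyclic loess (0.07, limma adjusted p = 0.315). Tff3, a goblet cell peptide named after its value was seen, differed by -0.06 (limma adjusted p = 0.487). T lymphocyte genes, which were lower in 11 of 13 cases, and mature enterocyte genes, lower in 13 of 15, moved in the same samples, and their part in the Nt5e difference was not tested.

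Of 10 measured oxygenases that use the same cosubstrate as the EGLN enzymes, 2 rose, 1 fell and 7 did not pass, 30.0% called, the same share as over all genes. Riox1, a ribosomal oxygenase, rose by 0.33 (SE 0.08, limma adjusted p = 0.00772), Jmjd6 rose by 0.30 (SE 0.08, limma adjusted p = 0.018) and P3h2, a collagen prolyl hydroxylase, changed by -0.36 (SE 0.06, limma adjusted p = 0.000703). P3h2 was dim, at 4.14 in the knockout and 4.50 in wild type. The calls of Riox1 (0.24, limma adjusted p = 0.0973) and Jmjd6 (0.24, limma adjusted p = 0.119) were lost without the 3 arrays of lowest hybridization controls, and Jmjd6 also did not pass with its probe sets averaged (0.18, limma adjusted p = 0.0584).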
